A study of Mus musculus with 19 samples.

Results

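The genes for mitochondrial ribosomal proteins were chosen by name, as the counted genes whose symbol is *Mrpl* or *Mrps* followed by a number and, at most, a letter from a to c. There were 78 of them among 54352 counted genes, 77 of which passed the filter on low counts in all 10 comparisons. The series measured RNA from mouse bone marrow progenitors in which *Spehd*, a long non-coding RNA, was knocked down. Hematopoietic stem cells of strain C57BL6 (C57BL6J donors in the study's methods) carrying a doxycycline-inducible shRNA with a zsGreen reporter were transplanted into sub-lethally irradiated C57BL/6-CD45.1; cKit-w41 recipients with no competitor cells. These reconstituted for 10 weeks and ate doxycycline food for 6 days, and zsGreen+ cells were then sorted. The 19 libraries fall into 6 groups, each a cell type with a hairpin. LSK cells (Lin- Sca1+ cKit+, the compartment that holds the stem cells) gave 4 libraries with the *Renilla* control hairpin, 3 with the *Spehd* hairpin sh10 and 3 with sh20. Common myeloid progenitors (CMPs) gave 4, 3 and 2. All groups share the transplantation, the inducible vector and the doxycycline, so that the *Renilla* groups are transplanted and treated controls. The labels do not say whether the replicate letters are separate animals, so p-values measure the spread between these libraries, which may be technical. *Spehd* itself was not analysed here, so the libraries' hairpin labels were not checked against its level.

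Mitochondria keep their own ribosome, which translates the few proteins encoded by mitochondrial DNA, all of them subunits of the oxidative phosphorylation complexes. Its RNAs come from mitochondrial DNA, but every protein of its large and small subunits is encoded in the nucleus, made in the cytosol and imported. Many of these proteins descend from the bacterial ribosome, and others are found only in mitochondria. Stem cells in the bone marrow are known for low mitochondrial activity, which rises as they commit to myeloid progenitors.

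Of the 78 genes, 51 encode proteins of the large subunit and 26 proteins of the small subunit. This assignment was made by structure and not by symbol, so *Mrps30* and *Mrps18a*, which are named for the small subunit, count with the large. *Mrps36* was counted with neither, since its protein is now placed in the oxoglutarate dehydrogenase complex. Bacterial counterparts are known for 46 of the proteins, and 31 are specific to mitochondria. The genes are spread over 17 chromosomes. Their principal transcripts are 418 to 7300 bases long with a median of 1302, against a median of 2975 for expressed protein-coding genes. The start of a member was head to head with, and within 1000 bases of, the start of another protein-coding gene in 33 of 78 (42.3%), against 17.2% of 11701 expressed protein-coding genes. A total of 45 members share no exonic base with another gene, 28 overlap a gene on the other strand and 8 overlap a gene on their own strand. The library kit does not mark strand, so reads from a member and from a gene antisense to it cannot be told apart.

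Promoter windows, from 250 bases before to 50 bases after the start, were found in RefSeq (GRCm38.p6) for 69 of the 78 genes. They were searched on both strands for 5 short motifs. The ETS motif CCGGAAG was in 25 windows (36.2%), against 18.8% of the windows of expressed genes and 9.12% of all windows. The YY1 motif AAGATGG was in 13 (18.8%), against 7.32% and 6.48%. The palindromic NRF1 motif, GCGCA followed directly by its reverse complement, was in 3 (4.35%), against 2.07% and 0.977%. CCAAT was in 27 (39.1%), close to the 39.0% of expressed genes, and the Sp1 motif GGGCGG was in 34 (49.3%), below the 63.9% of expressed genes. An ETS and a YY1 match were both present in 4 windows, and overlapped in none of them. A match is a run of letters and not a measured binding site. 5 windows are shown, with every match in capitals. *Mrpl52* and *Mrps22* had the largest differences between CMPs and LSK cells, *Mrpl32* and *Mrps12* share their windows with a neighbour that starts the other way, and *Mrpl44* hardly differed and has no match. Positions are counted from 1 at the first transcribed base, with negative positions before it.
The *Mrpl52* window (chr14:54426659-54426958, plus strand) holds YY1 at -91 and ETS at -47 and 3.
Mrpl52: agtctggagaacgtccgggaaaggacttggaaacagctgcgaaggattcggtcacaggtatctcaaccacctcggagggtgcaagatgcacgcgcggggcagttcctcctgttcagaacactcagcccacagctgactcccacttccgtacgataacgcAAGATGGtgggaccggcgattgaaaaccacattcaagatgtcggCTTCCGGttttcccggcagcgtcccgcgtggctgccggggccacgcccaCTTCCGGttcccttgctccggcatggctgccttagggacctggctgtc
The *Mrps22* window (chr9:98601630-98601929, minus strand) holds Sp1 at -147 and ETS at -11.
Mrps22: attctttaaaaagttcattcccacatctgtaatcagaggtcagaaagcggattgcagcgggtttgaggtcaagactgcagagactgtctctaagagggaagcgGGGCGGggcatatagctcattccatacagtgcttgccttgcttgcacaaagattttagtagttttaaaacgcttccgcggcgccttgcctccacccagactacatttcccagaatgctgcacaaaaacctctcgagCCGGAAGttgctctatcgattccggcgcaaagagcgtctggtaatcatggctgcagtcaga
The *Mrpl32* window (chr13:14612988-14613287, minus strand) holds YY1 at -241, CCAAT at -155, NRF1 at -87 and Sp1 at -35, and the proteasome gene *Psma2* starts inside it, 205 bases away on the plus strand.
Mrpl32: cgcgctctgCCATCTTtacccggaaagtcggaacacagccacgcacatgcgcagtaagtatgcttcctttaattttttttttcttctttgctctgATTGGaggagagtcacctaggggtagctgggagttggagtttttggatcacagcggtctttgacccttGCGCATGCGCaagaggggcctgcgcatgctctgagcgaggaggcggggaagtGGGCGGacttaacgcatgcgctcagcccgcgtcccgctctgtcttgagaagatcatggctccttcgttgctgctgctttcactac
The *Mrps12* window (chr7:28741772-28742071, minus strand) holds YY1 at -198, CCAAT at -156, -108, -68 and -19, Sp1 at -131 and ETS at 2, and the gene of the mitochondrial seryl-tRNA synthetase, *Sars2*, starts 147 bases away on the plus strand.
Mrps12: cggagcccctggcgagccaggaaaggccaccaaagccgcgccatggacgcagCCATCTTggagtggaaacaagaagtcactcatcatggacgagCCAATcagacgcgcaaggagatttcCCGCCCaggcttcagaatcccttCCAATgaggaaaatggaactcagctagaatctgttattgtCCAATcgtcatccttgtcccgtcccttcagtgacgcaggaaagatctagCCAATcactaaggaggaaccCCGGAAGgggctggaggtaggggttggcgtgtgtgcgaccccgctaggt
The *Mrpl44* window (chr1:79775768-79776067, plus strand) holds none of the 5 motifs.
Mrpl44: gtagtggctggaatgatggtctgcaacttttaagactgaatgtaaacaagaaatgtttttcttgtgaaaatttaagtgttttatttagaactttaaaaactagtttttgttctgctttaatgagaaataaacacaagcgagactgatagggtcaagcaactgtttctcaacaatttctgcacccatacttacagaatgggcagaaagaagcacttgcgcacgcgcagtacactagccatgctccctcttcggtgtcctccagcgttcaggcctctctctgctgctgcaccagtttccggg

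The libraries held 3647318 to 5965155 counts in genes, and all CMP libraries with a *Spehd* hairpin (4918631 to 5965155) were deeper than all CMP libraries with the *Renilla* hairpin (3857980 to 4314959). In CMPs, depth and knockdown therefore cannot be told apart by grouping alone. The summed level of 7 LSK markers was 1006 to 1487 CPM, the TMM-normalized counts scaled to a library of 1000000, in LSK libraries and 373 to 883 in CMP libraries, without overlap. A list of 8 myeloid progenitor markers overlapped between them (1038 to 1399 in LSK, 1104 to 1461 in CMP), so the CMP label was not borne out by this list. The summed level of 5 mature neutrophil markers was 267 CPM in LSK sh10 replicate B, 271 in LSK *Renilla* B and 105 in LSK *Renilla* D, up to 85.4 in the other LSK sh10 libraries and at most 10.5 elsewhere. The summed level of 4 B cell markers reached 112 CPM in CMP sh20 replicate C and at most 7.90 elsewhere.

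The 78 genes took up a small and cell type-dependent share of the counts. In CMPs with the *Renilla* hairpin the share was 0.715%, 0.737%, 0.691% and 0.735% in replicates A to D, and in LSK cells with the same hairpin 0.496%, 0.527%, 0.565% and 0.564%. All CMP libraries lay above all LSK libraries, with means of 0.719% ± 0.0217 (SD, n = 4) and 0.538% ± 0.0328 (SD, n = 4). With sh10 the share was 0.681%, 0.640% and 0.584% in CMPs and 0.556%, 0.725% and 0.490% in LSK cells, so that these groups overlapped. With sh20 it was 0.676% and 0.661% in CMPs and 0.573%, 0.567% and 0.570% in LSK cells, again without overlap. LSK sh10 replicate B stood apart from its group, with 65 of 77 members above both other libraries of that group. It is also a library with a high neutrophil marker level, whose part in this was not tested. Within CMP sh10, replicate C had 68 of 77 members below both other libraries.

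**Figure D1:**
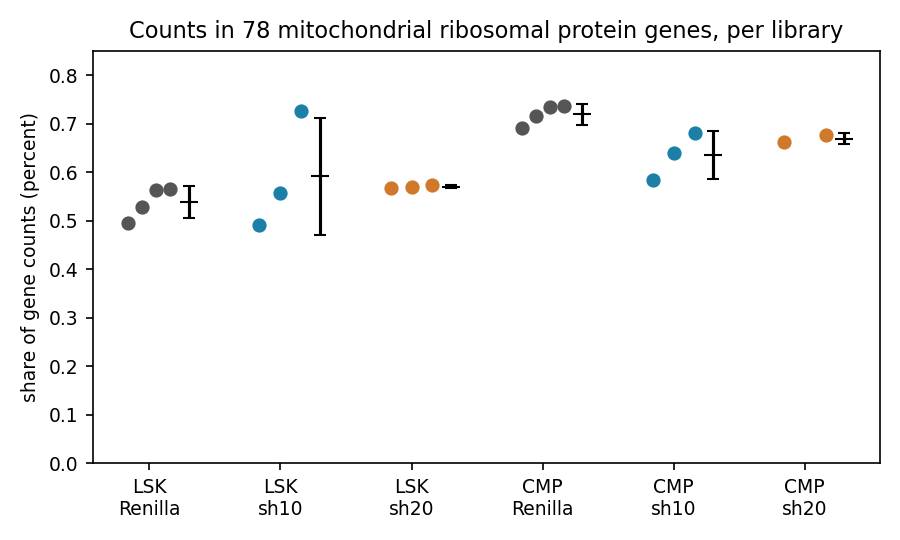
Share of all gene counts (percent, y axis) that fell in the 78 mitochondrial ribosomal protein genes, by library (points) and group (x axis), with group means and SD. The CMP *Renilla* libraries sit between 0.691% and 0.737%, above every LSK library but sh10 replicate B at 0.725%.

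Per length, the genes spanned about 2 orders of magnitude. Levels between genes were compared as CPM per kilobase of the principal transcript. In CMPs with the *Renilla* hairpin the median over 78 genes was 62.5 CPM per kilobase (1.41 to 171), and in LSK cells 43.5 (0.941 to 128). Over all 19 libraries *Mrpl28* (136 CPM per kilobase), *Mrpl33* (120) and *Mrpl52* (119), all genes of the large subunit, had the highest means. The lowest were *Mrpl53* (1.06), *Mrps36* (4.80) and *Mrps33* (11). *Mrpl53*, with 0 to 8 counts in a library, was the only member left out by the filter. It shares 695 exonic bases with *Gm42688* on its own strand, beside a principal transcript of 695 bases. The part of this overlap in its low level was not tested.

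Comparing CMPs with LSK cells under the *Renilla* hairpin asks how these genes change between the stem cell compartment and myeloid progenitors. Genes of the mitochondrial ribosome were often higher in CMPs: 50 of 77 (64.9%) were called higher and 0 lower by edgeR's quasi-likelihood test (adjusted p under 0.05, Benjamini-Hochberg, 15066 genes), where 11% of all genes were called higher and 8.73% lower. DESeq2 called 51 members higher, where it called 11.2% of the genes it tested. With no filter edgeR called 28 of 78 (35.9%), where it called 3.37% of all genes higher. The median log2 fold change of the 77 was 0.48 (quartiles 0.31 and 0.56), against -0.02 over all genes tested, and 75 of 77 were above 0. In 60 of 77 (77.9%) every CMP library was above every LSK library, against 16.4% of all genes. Both subunits took part, with 34 of 50 large subunit genes (median 0.48) and 16 of 26 small subunit genes (0.45). Genes with a bacterial counterpart (28 of 46, median 0.45) and those specific to mitochondria (22 of 30, 0.50) had similar medians, and the difference between the classes was not tested. Among the 45 without exonic overlap 30 were called, with a median of 0.51. Without the LSK *Renilla* libraries B and D, which had over 100 CPM of neutrophil markers, 44 members were called and the median was again 0.48. With each library of the comparison left out in turn, 40 members were called every time. Red cell markers moved with this comparison without overlap, summing to 22.1 to 59.9 CPM in CMPs and 3.38 to 7.23 in LSK cells, and their part in the result was not tested.

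**Figure D2:**
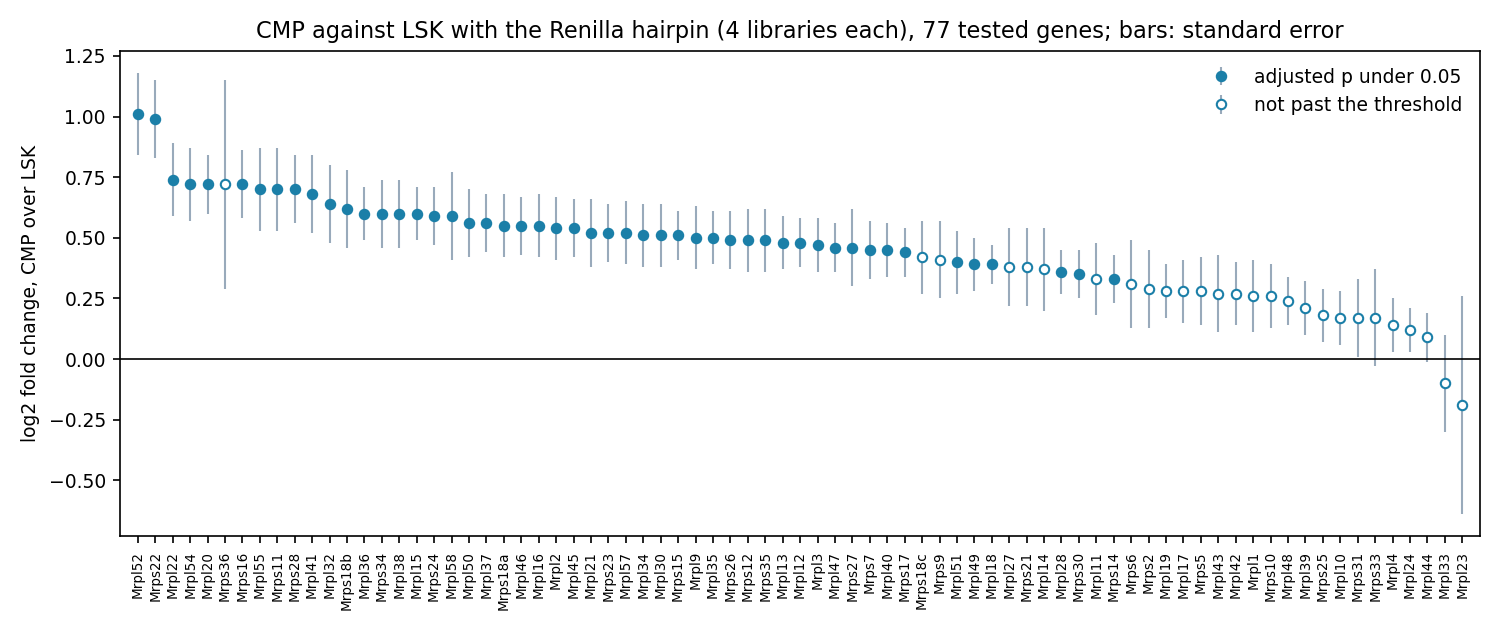
Log2 fold change of CMP over LSK cells under the *Renilla* hairpin (y axis) for 77 mitochondrial ribosomal protein genes ranked on the x axis, with standard errors, and filled points for those past an adjusted p of 0.05. 75 of 77 lie above 0 and the 50 called genes are all among them.

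*Mrpl52*, a large subunit protein specific to mitochondria, had the largest difference. It was measured at 64.2, 81.4, 68.2 and 71.9 CPM in CMP replicates A to D and at 26.0, 39.8, 37.9 and 38.2 in LSK cells. Every CMP library was above every LSK library, and LSK replicate A was the lowest. The log2 fold change was 1.01 ± 0.17 (SE, adjusted p = 7.4e-04, edgeR). *Mrps22*, a small subunit protein specific to mitochondria that is mutated in a human mitochondrial disease, followed with 80.8, 91.6, 64.3 and 72.6 CPM in CMPs and 36.8, 42.8, 34.9 and 41.2 in LSK cells. Its lowest CMP library was well above its highest LSK library, with a log2 fold change of 0.99 ± 0.16 (SE, adjusted p = 3.5e-04, edgeR). Next came *Mrpl22*, which lines the exit tunnel of the nascent peptide (0.74 ± 0.15), *Mrpl54* (0.72 ± 0.15) and *Mrpl20* (0.72 ± 0.12), with adjusted p of 0.00199, 0.00309 and 8.0e-04. The groups of each of these genes were also apart, with *Mrpl20* between 97.0 and 108 CPM in CMPs and between 53.9 and 67.4 in LSK cells.

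The stalk of the large subunit, which brings in translation factors, is built from the products of *Mrpl12*, *Mrpl10* and *Mrpl11*. *Mrpl12* was at 162, 160, 148 and 156 CPM in CMPs and 104, 106, 123 and 115 in LSK cells, without overlap (log2 fold change 0.48 ± 0.10, SE, adjusted p = 0.00233, edgeR). *Mrpl10* overlapped between the groups, at 111 to 122 CPM against 91.8 to 112, and did not pass the test (0.17 ± 0.11, adjusted p = 0.311). *Mrpl11* was between them at 0.33 ± 0.15 (adjusted p = 0.142). *Mrps12*, whose product sits at the decoding centre of the small subunit, was at 91.9, 87.2, 86.1 and 101 CPM in CMPs and 56.4, 65.5, 65.5 and 73.8 in LSK cells. The groups were apart, and the log2 fold change was 0.49 ± 0.13 (SE, adjusted p = 0.0160, edgeR). The 3 genes of the S18 family, of which only *Mrps18c* is counted above as having a bacterial counterpart, were at different sides of the threshold, with *Mrps18b* at 0.62 (adjusted p = 0.0111), *Mrps18a* at 0.55 (0.00639) and *Mrps18c* at 0.42, which missed the threshold (0.0632). *Mrps34*, another disease gene of the small subunit, was called at 0.60 (0.00773) and *Mrps30* at 0.35 (0.0186). *Mrps34*, with a principal transcript of 918 bases, shares 763 exonic bases with *Nme3* on its own strand. It shares 1309 with *Mapk8ip3* on the other strand, and the part of these overlaps was not tested.

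A minority of the genes differed little or varied too much to be called. *Mrpl44*, whose product resembles the ribonuclease III family, was at 102, 86.3, 93.0 and 94.2 CPM in CMPs and 82.6, 87.0, 96.0 and 88.3 in LSK cells. The groups overlapped, with a log2 fold change of 0.09 ± 0.10 (SE, adjusted p = 0.621, edgeR). *Mrpl33*, at 49.8, 56.0, 60.3 and 53.5 CPM in CMPs and 47.8, 56.6, 71.7 and 60.2 in LSK cells, overlapped as well (-0.10, adjusted p = 0.772). It and *Mrpl23* (-0.19, adjusted p = 0.827), a low gene at 6.09 to 13.3 CPM in CMPs and 8.18 to 11.4 in LSK cells, were the 2 members with a negative estimate, and both were chosen after their values were seen. *Mrps2* (0.29, adjusted p = 0.230) and *Mrps36* (0.72 ± 0.43, adjusted p = 0.268) did not pass either. *Mrps36* was at most 6.23 CPM in every library.

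**Figure D3:**
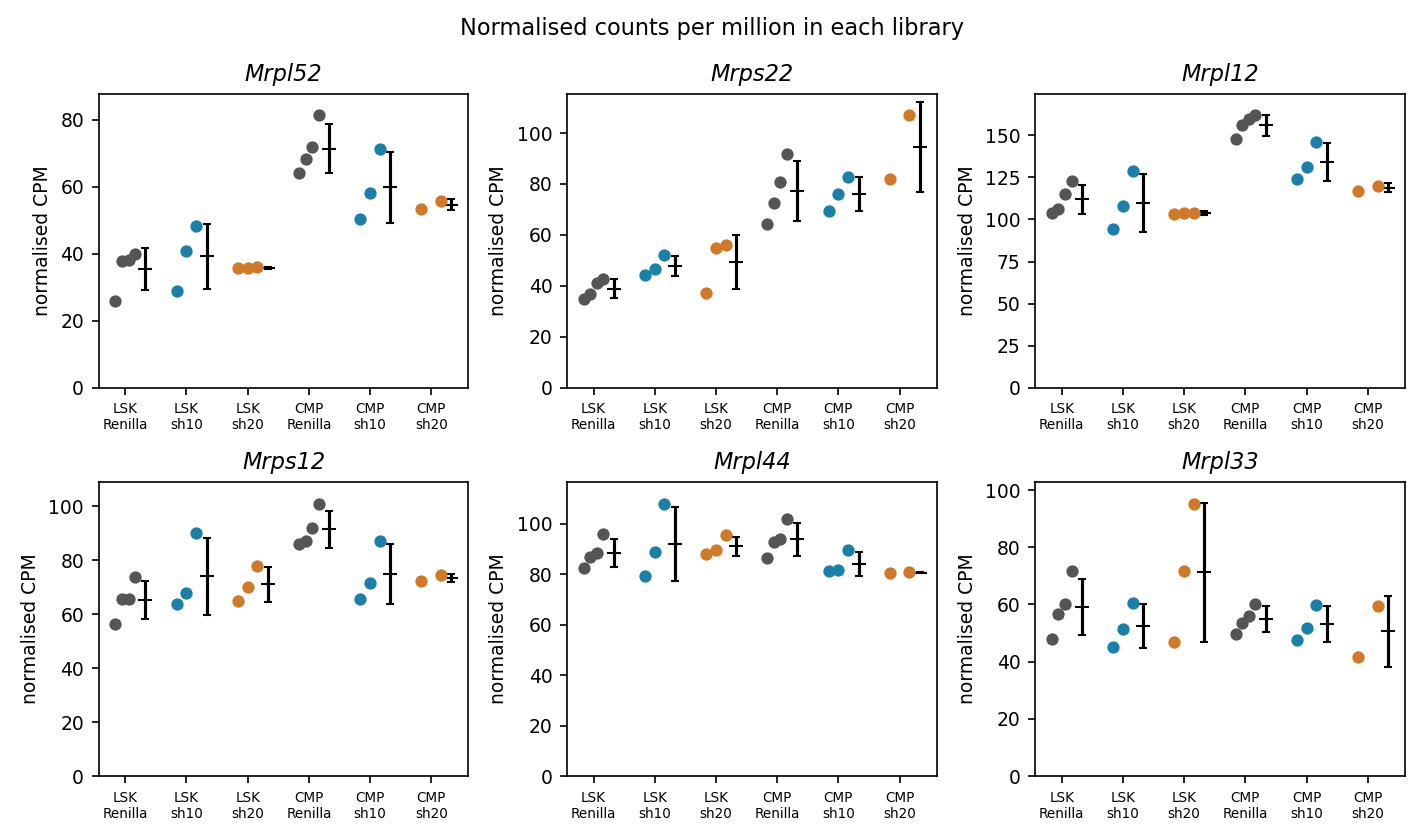
CPM (y axis) in each library of the 6 groups for *Mrpl52*, *Mrps22*, *Mrpl12*, *Mrps12*, *Mrpl44* and *Mrpl33*, with group means and SD. The CMP and LSK *Renilla* points are apart for the first 4 genes and overlap for *Mrpl44* and *Mrpl33*.

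Neighbours that start head to head with members were compared with them. Of the 33 members with such a neighbour 25 were called higher (median log2 fold change 0.48), and of the 31 neighbours that are not members 4 were (median 0.18), near the 11% of all genes, with the difference itself not tested. These 4 were the chaperonin gene *Tcp1*, the proteasome gene *Psma2* and the complex I genes *Ndufs6* and *Ndufb5*. *Mrpl32*, at 70.6, 82.8, 72.2 and 86.1 CPM in CMPs, rose by 0.64 ± 0.16 (SE, adjusted p = 0.00853, edgeR) and its neighbour *Psma2* by 0.30 (adjusted p = 0.0254). For *Mrps12* and *Sars2* the values were 0.49 and 0.48, the latter with an adjusted p of 0.122. *Mrpl46* and *Mrps11*, which start 412 bases apart, were both called (0.55 and 0.70). Of the 13 tested members with a YY1 match 12 were called, with a median of 0.55, against 31 of 55 without a match (0.42). For the ETS motif it was 17 of 24 (0.49) against 26 of 44 (0.45). These are descriptions and were not tested.

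Other genes around the mitochondrial ribosome were counted in lists chosen beside the members. Of 5 mitoribosome proteins with other symbols 4 were called higher in CMPs (median 0.48), among them *Gadd45gip1* (0.59 ± 0.08, adjusted p = 1.5e-04, edgeR) and *Dap3* (0.58 ± 0.10, adjusted p = 6.0e-04). Differences between lists were not tested, and 11% of all genes were called higher. Among the genes that serve the ribosome, those called were 2 of 13 mitochondrial translation factors (median 0.37), the initiation factor *Mtif2* at 0.60 and the elongation factor *Tsfm* at 0.57, and 5 of 26 assembly and rRNA modification genes (0.28), led by the helicase *Ddx28* at 0.66. Of the mitochondrial tRNA synthetases 6 of 20 were called (0.38), led by *Wars2* at 0.95, and of the genes for mitochondrial DNA transcription and RNA upkeep 2 of 14 (0.24), the RNA polymerase *Polrmt* at 0.43 and the RNA-processing enzyme *Elac2* at 0.52. No gene of these 5 lists was called lower. Nuclear genes for oxidative phosphorylation (OXPHOS) subunits counted 39 of 74 higher (median 0.35) and cytosolic ribosomal proteins 17 of 82 (0.40), also with 0 lower. With the length offset these counts were 23 of 74 and 8 of 82 (medians 0.19 and 0.25), where 10.7% of all genes were called higher. Without the libraries over 100 CPM of neutrophil markers they were 20 of 74 and 8 of 81 (8.39% of all genes). With no filter they were 10 of 76 and 2 of 89 (3.37%). With the depth covariate the cytosolic count was 9 of 82 (9.35%). The cytosolic share was thus below that of all genes with the length offset (9.76%) and with no filter (2.25%). It was near it, at 9.88%, without the libraries over 100 CPM of neutrophil markers.

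The same comparison under the *Spehd* hairpins compared other libraries. With sh10, 9 of 77 members were called higher in CMPs and 0 lower, where 7.51% of all genes were called higher and 8.58% lower, and the median was 0.22. DESeq2 called 10 higher (8.93% of the genes it tested). In 21 of 77 the groups did not overlap, against 19.4% of all genes, which is near that background. Without LSK sh10 replicate B, which stood apart, 28 members were called and the median was 0.37, while without LSK sh10 replicate C the median was 0.10. With the length offset 23 were called, where 9.5% of all genes were called higher. With no filter it was 1 of 78 (1.28%), below the 3.45% of all genes. Without the libraries over 100 CPM of neutrophil markers 22 were called (6.92% of all genes) and the median was 0.34. LSK sh10 replicates A (46.0 CPM) and C (85.4) were still in. Without CMP sh10 replicate A or B only 1 was called, without LSK sh10 replicate A 2, and without replicate C 3. With sh20, 5 of 77 were called higher and 0 lower (5.94% of all genes higher, 8.64% lower), by DESeq2 11 higher (6.76% of the genes it tested), with a median of 0.23, and in 43 of 77 all CMP libraries were higher, against 18.1% of all genes. With the depth covariate 14 were called (4.26% of all genes, median 0.36), with the length offset 10 (6.89%) and with no filter 2 (3.48%). T cell markers moved without overlap, at 27.4 to 55.6 CPM in CMPs and 2.20 to 19.3 in LSK cells with sh20. With sh10 they were at 1.25 to 2.21 and 4.41 to 8.31, also without overlap, and their part was not tested. Without LSK sh20 replicate B or C the sh20 count was 3. Leaving out CMP sh20 replicate B or C leaves 1 library in that group, and the median was then 0.21 or 0.28. Whether the difference between CMPs and LSK cells changes with the hairpin was tested as an interaction with both hairpins together, given last.

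*Mrps22* and *Mrpl35* were called under all 3 hairpins. *Mrps22* was at 76.1, 82.8 and 69.3 CPM in CMPs with sh10 and 107 and 81.8 with sh20, and at 52.2, 46.7 and 44.3 in LSK cells with sh10 and 54.8, 37.0 and 56.0 with sh20. Under both hairpins every CMP library was above every LSK library, with log2 fold changes of 0.67 ± 0.18 and 0.94 ± 0.20 (SE, adjusted p = 0.0153 and 0.00401, edgeR). *Mrpl52* passed with sh10 (0.61 ± 0.20, adjusted p = 0.0448) and had the same fold with sh20, where it was not called (0.61 ± 0.22, adjusted p = 0.0711). It was at 53.5 and 55.8 CPM in CMPs with sh20 against 35.6 to 36.1 in LSK cells, without overlap. With sh10 it was at 71.3, 58.1 and 50.3 CPM in CMPs with sh10 against 40.7, 48.2 and 28.9 in LSK cells. The largest difference with sh10 was that of *Mrpl50* (0.78 ± 0.16, adjusted p = 0.00310) among called members, at 137 to 156 CPM in CMPs and 66.4 to 101 in LSK cells. *Mrps5* (0.53, adjusted p = 0.0358) and *Mrpl9* (0.51, 0.0274) came after *Mrps22* and *Mrpl52*. With sh20 the others were *Mrpl15*, a protein of the large subunit core (0.69 ± 0.14, adjusted p = 0.00311), *Mrpl22* (0.59, 0.0402), *Mrps28* (0.54, 0.0491) and *Mrpl35* (0.50, 0.0220).

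After knockdown of *Spehd* in CMPs, with sh10 and sh20 together against *Renilla*, no member passed the test and most estimates were slightly below 0. 0 of 77 were called in either direction by edgeR, where 0.0387% of 12912 genes were called higher and 0.0774% lower. The median log2 fold change was -0.12 against 0.02 over all genes, and 61 of 77 were below 0. At an unadjusted p under 0.05, 23 members were lower and 1 higher, where 8.25% and 8.40% of all genes were. With no filter 12 members were lower, with the length offset 9, with the replicate letter as a block 10 and with the depth covariate 0. The shares of all genes belong to the first of these fits alone. In 21 of 77 every knockdown library was below every control library, against 6.37% of all genes. DESeq2 called 9 of 78 lower at its adjusted threshold, where it called 4.80% of the genes it tested. In a fit of all 19 libraries the median was -0.13 and *Mrpl18* was called (-0.31 ± 0.08, adjusted p = 0.0460), and in that fit with the log2 of the total counts as a covariate it was 0.04, with 0 calls. The lowest estimates were those of *Mrps24* (-0.35 ± 0.09, SE, adjusted p = 0.0929), *Mrpl54* (-0.34 ± 0.11, 0.144) and *Mrpl13* (-0.33 ± 0.09, 0.108), and the highest among members averaging 50 or more counts over the CMP libraries was *Mrps5* (0.24 ± 0.09, 0.217), with the lower-count *Mrpl23* at 0.39. *Mrpl13*, a protein of the large subunit core, was at 96.9, 108, 94.4 and 102 CPM in control CMPs, 86.9, 78.8 and 71.0 with sh10 and 81.0 and 80.6 with sh20, with every knockdown library below every control.

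The hairpins were also taken apart, each against the same 4 control libraries. With sh10, 0 of 77 were called by edgeR (0.977% of all genes higher, 0.991% lower), the median was -0.16 (-0.05 with the length offset and -0.02 with the depth covariate), and in 30 of 77 the groups did not overlap, lower with sh10, against 13% of all genes. Marker levels moved with sh10 in CMPs as well, without overlap with the controls: LSK markers summed to 373 to 519 CPM against 655 to 883, red cell markers to 10.0 to 20.4 against 22.1 to 59.9 and T cell markers to 1.25 to 2.21 against 13.2 to 38.3, and their part in the result was not tested. With sh20, 2 of 77 were called lower and 0 higher (4.27% of all genes lower, 1.90% higher), a share below that of all genes, with a median of -0.10, which was 0.11 (56 of 77 above 0) with the depth covariate in the fit of all 19 libraries and -0.12 in that fit without it. Every sh20 library was below every control in 31 of 77, against 17.6% of all genes. DESeq2 called 3 members lower with sh10 and 5 with sh20, where it called 4.22% and 6.53% of the genes it tested. The 2 called by edgeR with sh20 were *Mrpl18*, a protein of the central protuberance of the large subunit, and the stalk gene *Mrpl12*. *Mrpl18* was at 145, 143, 137 and 143 CPM in control CMPs, 129, 122 and 116 with sh10 and 108 and 107 with sh20, and was lower in every knockdown library than in any control. It fell by 0.39 ± 0.08 on the log2 scale with sh20 (SE, adjusted p = 0.0293, edgeR). *Mrpl12* was at 146, 131 and 124 CPM with sh10 and 120 and 117 with sh20, also below every control, and fell by 0.38 ± 0.09 with sh20 (adjusted p = 0.0413). The count was 0 without filtering, where *Mrpl18* and *Mrpl12* were at -0.38 and -0.37 (adjusted p = 0.0726 and 0.0730), and 0 with the depth covariate in the fit of all 19 libraries, where they were at -0.19 and -0.07. In that fit without the covariate *Mrpl18* alone was called (-0.40, adjusted p = 0.0359). With the replicate letter as a block no gene of the whole table was called. The count was also 0 without CMP *Renilla* replicate A, B or D, while without *Renilla* C it was 1. Leaving out a CMP sh20 library leaves 1 in that group, so only effect sizes are given. Without sh20 replicate B, *Mrpl18* and *Mrpl12* were both at -0.41, and without C at -0.37 and -0.35. *Mrps22* went the other way with sh20 (0.30 ± 0.17, adjusted p = 0.296) and was not called.

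**Figure D4:**
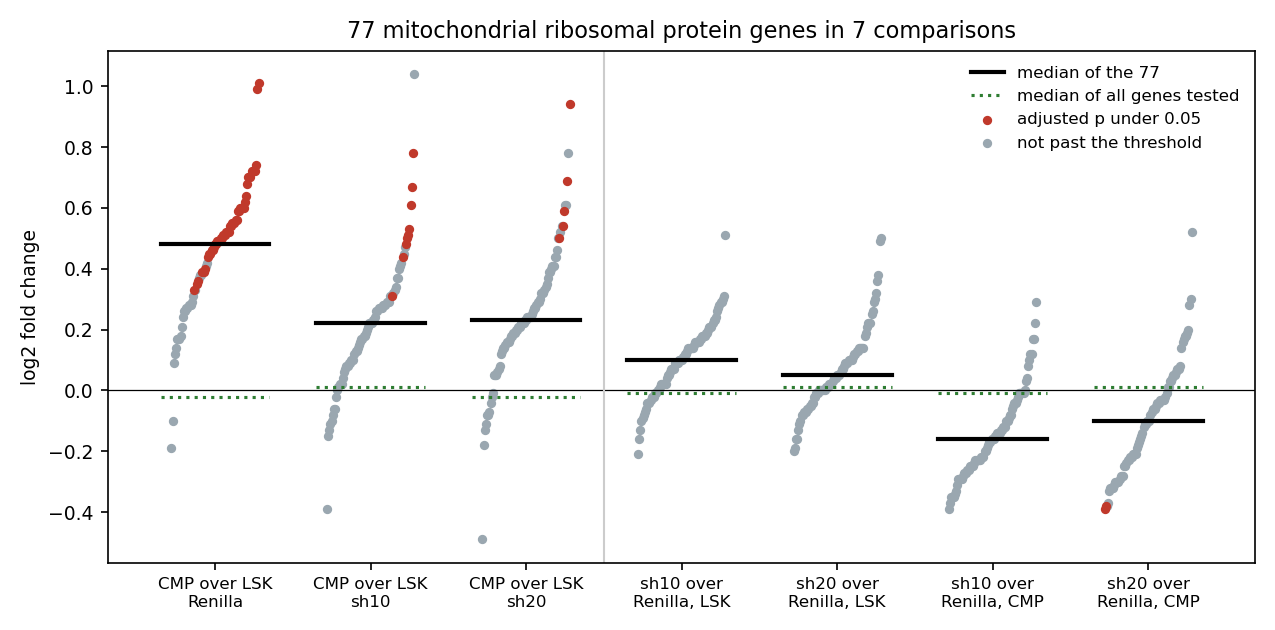
Log2 fold changes (y axis) of 77 mitochondrial ribosomal protein genes (points) in 7 comparisons (x axis), with bars for the median of these genes and for the median of all genes tested. Most genes lie above 0 in CMP over LSK with each hairpin (medians 0.48, 0.22 and 0.23) and most below 0 in CMP knockdown.

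Without the depth covariate, members with short transcripts had the lower estimates in the CMP knockdown, as did short genes in general. Members with a principal transcript up to 1302 bases had a median log2 fold change of -0.24, and longer members -0.06. Over all genes the median was -0.17 for transcripts up to 800 bases and for 800 to 1300 bases, -0.09 up to 2000, 0.01 up to 3000 and 0.14 above. Members in the same classes had medians of -0.25, -0.22, -0.02, -0.06 and -0.06. With the depth covariate in the fit of all 19 libraries, the medians of all genes were -0.04, -0.01, -0.01, -0.04 and -0.11. Those of the members were 0.02, 0.04, 0.04, 0.14 and 0.03, so short genes were not lower there. The 2 shorter classes held 15 and 23 members, and in the class over 3000 bases 16 of 17 members were below its median. In CMP over LSK cells under *Renilla* the medians of all genes were 0.18 and 0.22 in the 2 shorter classes and -0.14 in the longest, and those of the members in the 5 classes were 0.51, 0.52, 0.43, 0.53 and 0.40. The part of length in these differences was not tested. With an offset for length the count there was 50 of 77 and the median 0.39.

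**Figure D5:**
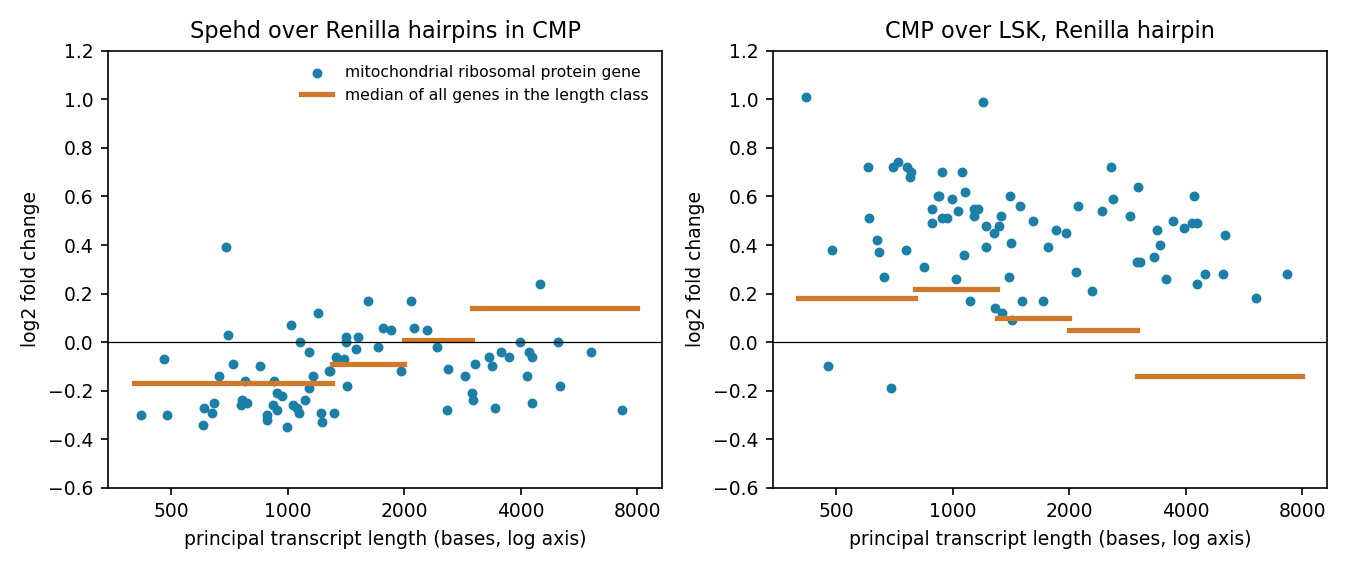
Log2 fold change (y axis) against principal transcript length in bases (log x axis) of 77 mitochondrial ribosomal protein genes, for *Spehd* over *Renilla* in CMPs and CMP over LSK under *Renilla*, with lines for the medians of all genes by length class. In CMP knockdown the 2 shorter classes have member medians of -0.25 and -0.22 beside -0.17 for all genes, and in CMP over LSK the member medians lie above those of all genes in every class.

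In the CMP knockdown, OXPHOS subunit genes had a lower median (-0.30, 73 tested) than the members, and so did cytosolic ribosomal proteins (-0.28, 80 tested). In the fit of the CMP libraries alone edgeR called 0 in either list, with 55 and 21 genes lower at an unadjusted p under 0.05. DESeq2 called 38 of 75 and 11 of 88 lower. These lists are also shorter, with median transcripts of 835 and 871 bases, and with the length offset the medians were -0.15 and -0.13, with 10 and 4 genes lower at that p. With the depth covariate in the fit of all 19 libraries both were at -0.05. The 5 mitoribosome proteins with other symbols had a median of -0.18, with 4 below 0 and a median transcript of 2494 bases. The translation factors (0.11), assembly genes (0.09), tRNA synthetases (0.14) and mitochondrial DNA genes (0.16) had positive medians and median transcripts of 1954 to 2868 bases. With sh20, 19 of 74 OXPHOS genes and 6 of 80 cytosolic ribosomal protein genes were called lower, where 4.27% of all genes were. These counts were 8 and 3 with no filter, 10 and 4 in the fit of all 19 libraries, and 0 of either list with the depth covariate or the block. Of the assembly list it was the methyltransferase-like gene *Mettl17* (-0.66, adjusted p = 0.0347, edgeR).

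In LSK cells no member was called after knockdown. With both hairpins together 0 members passed in edgeR or DESeq2 (0% of all genes in either tool), with 2 higher at an unadjusted p under 0.05 (1.85% of all genes), and the median was 0.07 against 0.00 over all genes. It was 0.03 without LSK sh10 replicate B and 0.11 without LSK sh20 replicate C. With sh10 the median was 0.10, with 0 of 77 at an unadjusted p under 0.05. It was -0.03 without LSK sh10 replicate B and 0.21 without replicate C. Without the 3 LSK libraries over 100 CPM of neutrophil markers, sh10 replicate B among them, the sh10 median was -0.06, and the sh10 libraries that stayed were still at 46.0 and 85.4 CPM of these markers. LSK markers summed to 1006 to 1235 CPM with sh10 and 1285 to 1487 with *Renilla*, without overlap, and their part was not tested. With sh20 the median was 0.05, with 3 higher at an unadjusted p under 0.05 (3.20% of all genes), and in 11 of 77 all sh20 libraries were higher, against 6.29% of all genes. *Mrpl12* was at 108, 129 and 94.5 CPM with sh10 and 103, 104 and 104 with sh20, around the control range of 104 to 123 (-0.07 ± 0.12 with both hairpins, SE, adjusted p = 0.998, edgeR). The highest estimates with both were *Mrpl23* (0.41 ± 0.29), *Mrps27* (0.37 ± 0.17) and *Mrpl9* (0.34 ± 0.16), and the lowest among members averaging 50 or more counts *Mrpl42* (-0.11) and *Mrpl18* (-0.11), with the lower-count *Mrps36* at -0.20, all with an adjusted p of 0.998.

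The difference between the knockdown effects in CMPs and in LSK cells, tested as an interaction over all 19 libraries, was called for 0 of 77 members by edgeR, where 0.0531% of 15066 genes were called lower and 0 higher. The median was -0.22, against -0.04 over all genes, and 70 of 77 were below 0, meaning a lower knockdown effect in CMPs than in LSK cells. All genes with transcripts up to 800 and of 800 to 1300 bases had medians of -0.21 and -0.24, beside -0.27 and -0.28 for the members there. Over 3000 bases the medians were 0.14 and -0.15. OXPHOS subunit genes had a median of -0.25 (69 of 74 below 0) and cytosolic ribosomal proteins -0.24 (72 of 82). At an unadjusted p under 0.05, 12 members were lower and 0 higher, where 6.49% and 3.58% of all genes were. The lowest were *Mrpl13* (-0.55 ± 0.14, SE, adjusted p = 0.204, edgeR), *Mrpl54* (-0.54 ± 0.20, 0.412) and *Mrps16* (-0.53 ± 0.19, 0.394), and DESeq2 called *Mrpl13* alone (0.421% of the genes it tested were called lower). *Mrpl13* was at 63.4, 75.9, 73.9 and 75.4 CPM in LSK controls, 81.8, 91.3 and 73.3 with sh10 and 84.8, 80.6 and 91.1 with sh20. The knockdown and control groups overlapped there, while in CMPs they did not. With an offset for length the median was -0.11, with the depth covariate it was -0.13 (*Mrpl13* -0.51, adjusted p = 0.479), and without the 3 libraries over 100 CPM of neutrophil markers it was -0.15.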

How the data were processed

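RNA-seq of 19 sorted mouse bone marrow libraries was analysed. Per the labels and the study's methods, RNA was amplified with the SMART-Seq v4 kit, reads were aligned to mm10 with STAR, duplicates were removed with Picard, and the authors deposited raw HTSeq counts per gene. The methods give default settings, which in HTSeq count reads on a single strand, while this kit does not mark strand. Between 51.9% and 53.8% of unique reads had no feature and stayed out of library sizes. The authors' DESeq2 results were not used here.

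Genes were filtered with filterByExpr (minimum count 10, minimum total 15), scaled by TMM and tested with edgeR 4.0.16 (R 4.3.3), quasi-likelihood, with Benjamini-Hochberg adjustment over all genes tested and a threshold of 0.05. CPM values are TMM-normalized counts scaled to a library of 1000000. Cell types with the same hairpin and the interaction were fitted over all 6 groups, and knockdown within a cell type in that cell type alone, with both hairpins in a single group or each in its own. Transcript lengths and gene overlaps came from GENCODE vM21 (GRCm38) and promoters from RefSeq. The scripts were tested on simulated data.

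The members, lists and tests were chosen with earlier results of these data known. Named were, per comparison, the 5 called members with the largest rise and fall and 50 or more counts on average, the 3 highest and 3 lowest where fewer than 3 were called, a fixed set by role (stalk, decoding, S18 homologs and others), the extremes per length, and from each other list the largest called changes. Alternatives were DESeq2 1.42.0, its size factors, no filter, a replicate block, a depth covariate, a length offset and each library left out. Leaving out 3 libraries with over 100 CPM of neutrophil markers, and fitting the knockdown in all 19 libraries without the covariate, were chosen after seeing the data. The depth covariate was used in the fit of all 19 libraries. Depth limits low members, and p-values cover only the spread between libraries.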

Additional observations from a re-analysis of the deposited data

Results flagged for a closer look

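Of 168 groups and measures of 4 to 10 libraries checked, 11 held a library that stood far from the rest of its group by Dixon's criterion, where chance gives about 1 in 20. Knockdown libraries of both hairpins were taken as a single group for this. LSK sh10 replicate B accounted for 3 of them, with a member share of 0.725% of counts, *Mrpl54* at 79.4 CPM (nearest other library 58.6) and *Mrpl58*, whose product frees peptides from stalled ribosomes, at 82.8 CPM (54.6). This library also carried 267 CPM of neutrophil markers, whose part was not tested. LSK *Renilla* replicate A was lowest for *Mrpl52* at 26.0 CPM (37.9), *Mrps28* at 45.2 (58.4) and *Mrpl13* at 63.4 (73.9). In the other LSK *Renilla* libraries, *Mrps33* was lowest in replicate D at 10.4 CPM (12.5) and *Mrps16* highest in replicate C at 44.2 (42.5). Among CMPs, *Mrpl44* was at 89.8 CPM in sh10 replicate B (81.7), *Mrpl39* at 112 in sh20 replicate B (88.6) and *Mrpl51* at 65.2 in *Renilla* replicate C (70.2).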

How the results depend on the processing

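In CMP over LSK cells under *Renilla*, 28 members were called with no filter, where 3.37% of all genes were called higher. The count was 47 to 51 with the other tools, scalings and covariates and 41 to 49 with a library left out (medians 0.44 to 0.52). The median was 0.39 with the length offset. With sh10 the count was 1 with no filter (3.45% of all genes) and 23 with the length offset (9.5%). It was 22 without the libraries over 100 CPM of neutrophil markers (6.92%). With a library left out it was 1 to 28 (medians 0.10 to 0.37), the highest without LSK sh10 replicate B. With sh20 it was 2 with no filter (3.48% of all genes), 10 (median 0.20) with the length offset (6.89%), 11 with DESeq2 and 14 (median 0.36) with the depth covariate (4.26%). It was 6 without LSK sh20 replicate A, and the median was 0.21 to 0.28 with a library left out.

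For *Spehd* over *Renilla* in CMPs, DESeq2 called 9 members. The depth covariate was fitted over all 19 libraries, where 1 member was called (median -0.13) without it and 0 (0.04) with it, against medians of -0.15 to -0.10 with a library left out. With sh10 alone the length offset gave 1 call and a median of -0.05, DESeq2 3 calls and the depth covariate a median of -0.02, and with a library left out the median was -0.21 to -0.11. With sh20 alone there were 0 calls with no filter, 5 with DESeq2, 1 in the fit of all 19 libraries (median -0.12) and 0 in that fit with the depth covariate (0.11). The median was -0.14 to -0.08 with a library left out. In LSK cells the sh10 median was -0.06 without the libraries over 100 CPM of neutrophil markers and -0.03 to 0.21 with a library left out, and the sh20 median was 0.01 to 0.09 with a library left out. With the depth covariate the LSK medians were 0.18 with both hairpins together, 0.21 with sh10 and 0.16 with sh20, with 0 calls. For the interaction the length offset gave a median of -0.11, the depth covariate -0.13 and DESeq2 1 call. The causes were not tested.

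The replicate letter as a block gave 50, 7 and 5 called members in CMP over LSK cells with *Renilla*, sh10 and sh20, and 0 with sh20 over *Renilla* in CMPs, where no gene of the whole table was called under it. Within a cell type, the deviations of libraries with the same letter had correlations of -0.111 to 0.104 over 16 pairs. With another letter they were -0.155 to 0.113 over 43 pairs. Across cell types with the same hairpin, the same letter gave -6.8e-04 to 0.240 over 9 pairs (median 0.0552). Another letter gave -0.199 to 0.106 over 22 pairs there (median -0.0298). The same-letter values were low but higher there, and whether the letters pair the libraries was not tested. They were not taken to pair them. Of 1469 values of named members under alternatives, 71 lost a call and 8 gained it. The sign changed in 57, none of them called in either fit, and 15 of these were under the depth covariate. *Mrpl53*, *Mrps36* and *Mrpl23* had few counts, and the part of depth in this was not tested.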
